A study of Rattus norvegicus with 6 samples.

Results

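The genes described here are those of the proteasome and of the ubiquitin pathway, chosen by name: every gene of the array whose symbol begins with Psm, Ube, Usp, Uch, Cul and a digit, Fbx, Sumo, Nedd, or with Ub followed by a, b, c, d or l. The rule found 72 genes among 3158 named genes and 7180 features in all, a feature being a named gene or a clone without a single gene name. The rule reads symbols only. By class they were 7 genes of the core particle, 10 of the regulatory particle, 5 of its alternative activators and assembly factors, 4 ubiquitin-like proteins, 2 activating enzymes (E1), 11 conjugating enzymes (E2), 14 ligases or their subunits (E3), 15 enzymes of removal and 4 genes of the name pattern that their symbols put in no class. These 4 are Ubac1, Ubac2, Ubap1 and Usp6nl; Usp6nl encodes a GTPase-activating protein and was moved there from the Usp group. A clone annotated to both Psma3 and Psma3l was left out.

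JA, JB and Amy are cell lines grown from reflux-induced tumors of the rat esophagus. The RNA of each was set against a pool that held RNA of 2 normal esophageal cell lines of the rat, Normal1 and Normal2, in equal parts, on a pair of cDNA arrays that differ in which side carried Cy3 and which Cy5. The 6 arrays thus hold 3 lines with a technical dye swap each, a line was counted as 1 replicate, and 3 lines set the limit of what can be resolved. Values are log2 ratios, written as tumor line over normal pool, the array whose line carried Cy3 (a Cy3 array below) being given before the one whose line carried Cy5 (a Cy5 array). The direction follows the name order of the titles and is likely rather than settled, the log base was taken as 2, and ratios give no level of either side, so whether an epithelial marker was present could not be checked.

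Proteins that are to be destroyed receive chains of ubiquitin, a small protein that an E1 enzyme activates, an E2 enzyme carries and an E3 ligase attaches. The 26S proteasome, a hollow core particle of alpha and beta rings capped by a regulatory particle, unfolds and cuts the tagged protein, and deubiquitinating enzymes remove or recycle the chains. The ubiquitin-like modifiers SUMO and Nedd8 have E1 and E2 enzymes of their own, and in cells that respond to interferon some catalytic beta subunits are exchanged for immunoproteasome subunits.

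Of the 72 members, 23 were higher and 12 lower in the tumor lines at an adjusted p under 0.05 (limma over all 7180 features), or 31.9% and 16.7%, against 20.7% and 32.8% of all features (23.1% and 32% of named genes). In either direction 48.6% passed, against 53.5% of all features and 55.1% of named genes. The members' median was 0.14 beside -0.12 for all features, and 37 members did not pass. With each array centred on its median, 28 members were higher and 11 lower, against 25.7% and 27.6% of all features. The whole spread of the members ran from -1.73 for Cul3 to 1.39 for Ube2s, within a range of -9.52 to 6.01 over all features. Above 0 on all 6 arrays stood 22 members (30.6%, against 22.5% of features) and below 0 on all 6 stood 18 (25%, against 33.4%).

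The number of calls rested on the lines and on the error model. Without JA 7 members were higher and 8 lower (9.72% and 11.1%, against 9.87% and 19% of all features), and without Amy 10 and 10 (13.9% each, against 14% and 23.6%). The share of members called higher was thus no larger than that of all features when either line was left out. Without JB 18 were higher and 13 lower (25% and 18.1%, against 19.5% and 32%). The calls that held without each line in turn were Psmd1, Psmd2, Psmd8, Psme3, Psmg1 and Ube2s above the pool and Cul3, Fbxo15, Uba2, Ubac1, Ube2a, Ubl5 and Usp36 below it. With an assumed spread for the pool, that of an average of 2 lines, 6 and 7 passed (8.33% and 9.72%, against 9.29% and 18.1% of all features), the same genes except that Nedd8 replaced Psmd8. With variances not moderated across features, only Psmd8 above the pool and Cul3, Ubl5 and Usp36 below it passed (1.39% and 4.17%, against 4.18% and 10.3%). Under both of these error models the members' share of higher calls was below that of all features. A p-value here reflects how far these 3 lines differ from each other, without the variation of the pool, a single RNA mixture.

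Markers of other cell types moved with the comparison. Of 12 measured fibroblast and matrix markers 10 were lower, 1 was higher and the median was -2.92. Of 9 leukocyte markers 8 were lower and 1 higher with a median of -3.57. All 4 muscle and all 3 endothelial markers were lower, with medians of -3.68 and -1.53. Of all features 20.7% were higher and 32.8% lower. The leukocyte marker Cd53, counted as lower, changed sign with the dye, averaging 0.73 on the Cy3 arrays and -1.68 on the Cy5 arrays. Squamous markers were lower in both measured cases, Lgals7 at -5.82 ± 1.01 and Cstb at -0.68 ± 0.46. The other epithelial lists went both ways. Of 4 columnar markers Tspan8 was higher (3.14 ± 0.37), Krt7 lower (-0.76 ± 0.38) and Krt8 and Tff3 did not pass. Of 4 adhesion markers Cdh3 was higher (1.98 ± 0.15), Cd24 and Pkp2 were lower (-3.58 ± 1.30 and -0.77 ± 0.23) and Cldn1 did not pass. JB had the highest line mean in all 4 columnar markers. Among the adhesion markers JB was highest in Cldn1, lowest in Cd24 and Pkp2, and between the other lines in Cdh3. The part of these differences in the values below was not tested, and fewer cells of a type and less RNA per cell cannot be told apart in such samples.

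Among the 7 core particle genes, 2 were higher and none lower (28.6% and 0%, against 20.7% and 32.8% of all features). The other 5 missed the threshold, and the median was 0.35. With few genes in a class, such shares are a description only. The alpha-ring subunit Psma1 stood at 0.74 and 0.65 in JA, 1.32 and 0.58 in JB, and 0.41 and 0.17 in Amy. All 6 values lay above 0, the JB Cy3 array highest, and the mean was 0.64 ± 0.33 (SD, n = 3 lines; adjusted p = 0.0231). The alpha subunit Psma5 stood at 0.86 and 1.19 in JA, 0.20 and 0.66 in JB, and 0.28 and 0.49 in Amy, with JA above the other lines on both arrays and a mean of 0.61 ± 0.36 (adjusted p = 0.031). Its 2 clones differed little, at 0.60 and 0.63. The call of Psma1 was lost without JA (0.12) or JB (0.0569) and on the Cy5 arrays alone (0.0584). That of Psma5 was lost without JA (0.118), Amy (0.0662) or the JB Cy5 array (0.0783) and on the Cy3 arrays alone (0.0868).

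The other alpha subunits lay closer to the pool. Psma6 averaged 0.42 ± 0.49, Psma4 0.35 ± 0.14, Psma2 0.14 ± 0.13 and Psma7 0.10 ± 0.28, with adjusted p from 0.0598 to 0.597. Psma6 stood at 0.32 and 0.50 in JA, 0.88 and 0.93 in JB, and -0.13 and -0.0018 in Amy, so that JB was highest and Amy at or just below 0. Psma4 was above 0 on all 6 arrays and passed without the Amy Cy3 array (0.0372), with centred arrays (0.0235), on the Cy5 arrays alone (0.0261), with dye orientation as a block (0.0276) and with line as a random block (0.0471). The only beta subunit measured by name was the immunoproteasome subunit Psmb8, described further on, and without it the 6 remaining core genes had a median of 0.38.

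**Figure D1:**
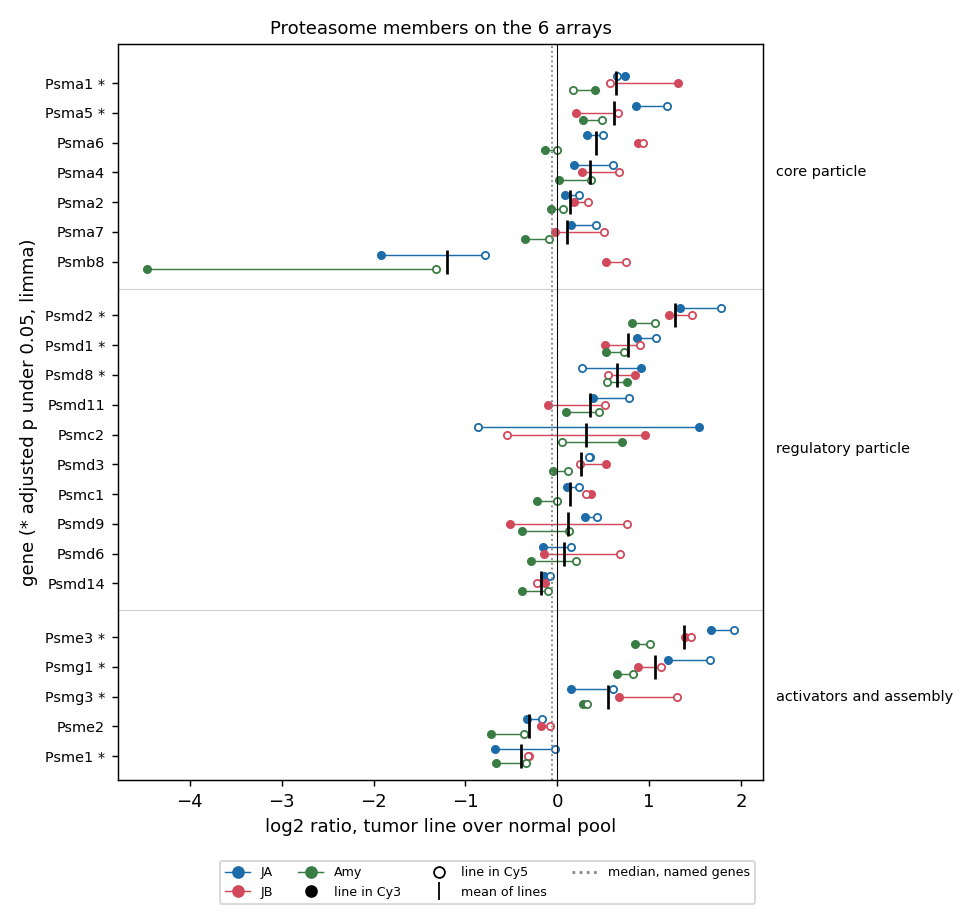
Log2 ratios of tumor line over normal pool (x axis) for the 22 proteasome members (y axis), by class; filled circles mark Cy3-labelled lines and open circles Cy5-labelled ones, joined for each line, black ticks are means of the 3 lines and the dotted line is the median of named genes. Psmd2, Psme3 and Psmg1 lie above 0 on every array, Amy (green) is often the lowest line, and Psmb8 is the gene with the widest spread.

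The regulatory particle, which binds, unfolds and feeds in the tagged protein, had 3 of 10 genes higher and none lower. These are 30% and 0%, against 20.7% and 32.8% of all features, and the class median was 0.28. Psmd2, a scaffold subunit of the base that binds ubiquitin-like domains, stood at 1.33 and 1.78 in JA, 1.22 and 1.47 in JB, and 0.81 and 1.07 in Amy. Every array was above 0.8 and Amy was lowest in both dye orientations; the mean was 1.28 ± 0.31, or 2.43-fold (adjusted p = 0.00269). Psmd1, the other large scaffold subunit of the base, stood at 0.86 and 1.07 in JA, 0.51 and 0.90 in JB, and 0.53 and 0.73 in Amy, with a mean of 0.77 ± 0.18 (adjusted p = 0.00636). Its 6 values overlapped between lines and all lay above 0.5. The lid subunit Psmd8 stood at 0.91 and 0.27 in JA, 0.85 and 0.55 in JB, and 0.76 and 0.54 in Amy, a mean of 0.65 ± 0.055 (adjusted p = 0.0072). The line means of Psmd8 were close together, but the Cy3 arrays were above the Cy5 arrays in every line.

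The ATPase subunits Psmc1 and Psmc2, the lid subunits Psmd3, Psmd6, Psmd11 and Psmd14 and the assembly chaperone Psmd9 made up the remainder, with means from -0.18 for Psmd14, the deubiquitinase of the lid, to 0.36 for Psmd11. Psmc2 stood at 1.55 and -0.87 in JA, 0.96 and -0.55 in JB, and 0.70 and 0.056 in Amy. Its JA and JB ratios changed sign with the dye, and the mean of 0.31 ± 0.091 hides a difference between 1.07 over the Cy3 arrays and -0.45 over the Cy5 arrays. It did not pass (adjusted p = 0.0743), but did with centred arrays (0.0303) and on the Cy3 arrays alone (0.00808). Psmd11, at 0.36 ± 0.20 (adjusted p = 0.0719), passed without the JB Cy3 array (0.0448), with centred arrays (0.0338), on the Cy5 arrays alone (0.0227) and with dye orientation as a block (0.0441).

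Of the 5 alternative activators and assembly factors, 3 were higher and 1 was lower (60% and 20%, against 20.7% and 32.8% of all features). Their median was 0.55, and they held the highest proteasome ratio. Psme3, the PA28-gamma activator of the nucleus, stood at 1.68 and 1.92 in JA, 1.39 and 1.45 in JB, and 0.84 and 1.00 in Amy. The 3 lines did not overlap, JA being highest and Amy lowest, and the mean was 1.38 ± 0.44, or 2.6-fold (adjusted p = 0.00382). Psmg1, a chaperone that assembles the alpha ring, stood at 1.21 and 1.66 in JA, 0.88 and 1.13 in JB, and 0.65 and 0.83 in Amy, again in the order JA, JB, Amy without overlap and with a mean of 1.06 ± 0.35 (adjusted p = 0.0054). Psmg3, another assembly chaperone, averaged 0.55 ± 0.38 (adjusted p = 0.0464) from 0.15 and 0.60 in JA, 0.68 and 1.30 in JB, and 0.27 and 0.32 in Amy. JB carried its highest values, and the call was lost without JA (0.12), JB (0.121), Amy (0.0784), the JA Cy5 array (0.0998), the JB Cy3 array (0.0646), the JB Cy5 array (0.0569) or the Amy Cy5 array (0.0559) and on the Cy3 arrays alone (0.111).

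Psme1 and Psme2 form the PA28-alpha/beta activator, which interferon is known to induce. Psme1 stood at -0.68 and -0.029 in JA, -0.30 and -0.32 in JB, and -0.67 and -0.35 in Amy, below 0 on all 6 arrays, with a mean of -0.39 ± 0.10 (adjusted p = 0.0391). The call was lost without JA (0.129), JB (0.0638), Amy (0.158), the JA Cy3 array (0.201), the JB Cy3 array (0.0606), the JB Cy5 array (0.0668), the Amy Cy3 array (0.0638) or the Amy Cy5 array (0.0533), with centred arrays (0.103), on the Cy5 arrays alone (0.227) and with dye orientation as a block (0.0569). Psme2 stood at -0.33 and -0.17 in JA, -0.17 and -0.079 in JB, and -0.72 and -0.36 in Amy, a mean of -0.31 ± 0.21 that did not pass (adjusted p = 0.111), with its 2 clones at -0.44 and -0.17.

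Psmb8 was the one member that set a line apart from both others by at least 1 on the log2 scale within each dye orientation (1.39% of members, against 2.77% of all features). This catalytic subunit, also called LMP7, replaces a constitutive subunit in the immunoproteasome. It stood at -1.92 and -0.79 in JA, 0.53 and 0.75 in JB, and -4.47 and -1.32 in Amy. JB was above 0 on both arrays and JA and Amy were below 0 on both, so the mean of -1.20 ± 1.77 did not pass (adjusted p = 0.171), and it did without JB (0.00353). The Amy Cy3 value rested on 2 spots of 1 clone that read -2.74 and -6.19, one of 2 cases among 594 member spot pairs in which duplicates differed by more than 1. The other Amy array read -0.84 and -1.81.

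Genes of the interferon response were mostly lower as well. Of 8 measured, 6 were lower (75%, against 32.8% of all features) and 2, Stat2 and B2m, missed the threshold. The list had a median of -1.13 and line medians of -1.48 in JA, -0.72 in JB and -1.17 in Amy. Ifit2 and Ifi27l2b averaged -2.63 ± 0.57 and -2.12 ± 0.35, and the transcription factor Irf1 -1.26 ± 0.66. The MHC class I light chain B2m stood at -0.47 and -0.50 in JA, -0.078 and 0.049 in JB, and -0.88 and -0.83 in Amy, with JB nearest to 0 on both arrays; it did not pass (adjusted p = 0.0954). Ifitm3 stood at -1.41 and -1.62 in JA, -0.51 and -0.35 in JB, and -1.01 and -0.96 in Amy, JB again being nearest to 0. Irf1 in JB read 0.32 on the Cy3 array and -1.38 on the Cy5 array, above JA (-1.22 and -1.66) and Amy (-1.15 and -2.47). Its level thus shifted with the dye, but JB was the highest line in both orientations. JB was also the highest line in both orientations for Stat2. Irf9 stood at -1.245 and -1.84 in JA, -0.14 and -2.58 in JB, and -0.93 and -1.48 in Amy. Its JB value was the highest of the Cy3 arrays and the lowest of the Cy5 arrays. For Ifit2, Ifi27l2b and Ifitm1 JB was not the highest line in both orientations. Whether any of these line differences bears on Psmb8 was not tested.

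**Figure D2:**
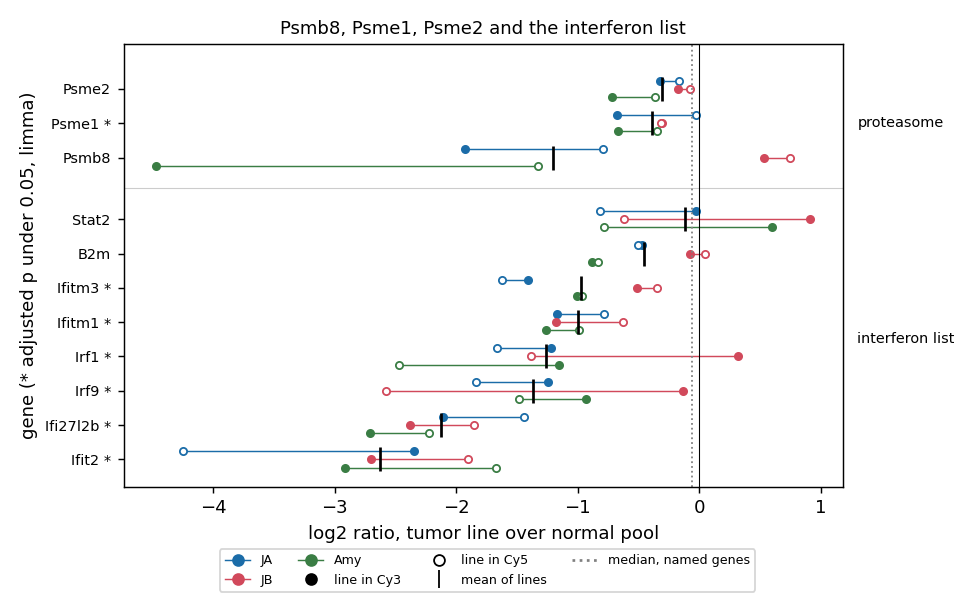
Log2 ratios of tumor line over normal pool (x axis) for the interferon-inducible proteasome genes Psmb8, Psme1 and Psme2 and the 8 measured genes of the interferon list (y axis), with filled circles for the line in Cy3, open circles for the line in Cy5 and black ticks for the mean of the lines. JB (red) lies above 0 for Psmb8 and nearest to 0 in both dye orientations for B2m, Ifitm3 and Irf1. Ifi27l2b, Ifitm1 and Ifit2 show no such separation of JB, and for Irf9 JB is highest in Cy3 but lowest in Cy5.

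Promoter windows from 250 bases before to 50 bases after the annotated start were available for 62 of the 72 members (RefSeq, assembly GRCr8) and were searched on both strands for 2 motifs. The interferon-stimulated response element, searched as GAAA, any 2 bases and GAAA, was found in 3 of 62 members (4.84%, against 3.92% of 33469 promoters), Psma4, Psmb8 and Psme2. All were proteasome members (3 of 19, 15.8%), with 0 of the 43 other members. These are few genes, and the shares were not tested. The antioxidant response element, searched as TGACNNNGC, was found in 11 of 62 (17.7%, against 12.1%). It is a motif of the stress factors Nfe2l1 and Nfe2l2 that are known to act on proteasome genes. Its share was no larger in the proteasome members (3 of 19, 15.8%) than in the other members (8 of 43, 18.6%). The windows of the immunoproteasome gene Psmb8 and the activator gene Psme2 are shown for the first motif, and those of Psmd1, which was higher, and Psmd9, which did not pass, for the second; capitals mark the motif, and no 2 motifs overlapped.
Psmb8, chr20:4656982-4657281, minus strand: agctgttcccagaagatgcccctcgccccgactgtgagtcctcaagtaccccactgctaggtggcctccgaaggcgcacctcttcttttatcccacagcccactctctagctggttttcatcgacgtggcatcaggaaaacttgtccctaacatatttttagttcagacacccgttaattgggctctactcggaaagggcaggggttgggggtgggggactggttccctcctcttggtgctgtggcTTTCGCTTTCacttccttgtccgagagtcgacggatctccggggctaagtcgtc
Psme2, chr15:33052702-33053001, minus strand: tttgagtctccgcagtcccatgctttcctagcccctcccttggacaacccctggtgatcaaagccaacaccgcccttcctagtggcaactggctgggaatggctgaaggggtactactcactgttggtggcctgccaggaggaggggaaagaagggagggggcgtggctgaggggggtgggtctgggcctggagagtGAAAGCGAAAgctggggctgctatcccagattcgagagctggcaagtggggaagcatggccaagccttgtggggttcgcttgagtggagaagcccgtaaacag
Psmd1, chr9:94157721-94158020, plus strand: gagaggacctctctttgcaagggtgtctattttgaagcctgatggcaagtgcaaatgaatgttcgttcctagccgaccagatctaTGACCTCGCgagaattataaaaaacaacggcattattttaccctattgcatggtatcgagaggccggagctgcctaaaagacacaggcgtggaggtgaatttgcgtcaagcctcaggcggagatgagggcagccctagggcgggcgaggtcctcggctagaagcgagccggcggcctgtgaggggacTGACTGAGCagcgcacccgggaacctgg
Psmd9, chr12:39018215-39018514, minus strand: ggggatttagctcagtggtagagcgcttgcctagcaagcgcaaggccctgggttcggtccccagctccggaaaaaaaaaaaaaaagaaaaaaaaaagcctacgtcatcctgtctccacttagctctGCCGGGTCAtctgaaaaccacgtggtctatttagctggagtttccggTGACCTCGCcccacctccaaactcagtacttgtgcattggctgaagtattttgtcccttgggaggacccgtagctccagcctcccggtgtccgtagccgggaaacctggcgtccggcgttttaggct
In Psmb8 the motif began 4 bases before the annotated start and was read on the opposite strand, and in Psme2 it began 53 bases before the start. Psmd1 and Psmd9, with mean ratios of 0.77 ± 0.18 and 0.12 ± 0.25, each held 2 matches of the antioxidant motif. These matches describe the letters of the windows only. The ratio of Nfe2l2 itself was -0.0069 ± 0.099 (adjusted p = 0.964), with 0.23 on the Cy3 arrays and -0.24 on the Cy5 arrays. Whether motifs or this ratio bear on the members was not tested.

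Amy was the lowest of the 3 line means in 19 of the 22 proteasome members, or 86.4%, against 38.4% of named genes. Within the Cy3 orientation it was lowest in 16 (72.7%, against 40.4%) and within the Cy5 orientation in 18 (81.8%, against 34.5%), and with centred arrays in 19 again. This order rests on the likely direction of the ratios: with the sign turned, Amy would be the highest line in the same 19. The median over the 22 genes was 0.37 in JA, 0.41 in JB and 0.11 in Amy. This pattern was noticed after the values were seen, the genes share arrays and were not treated as independent, and the lines have no replicate, so no test was made. In many of these genes the distance was small: Psma2, for instance, stood at 0.083 and 0.24 in JA, 0.18 and 0.33 in JB, and -0.069 and 0.062 in Amy. Over all named genes Amy also had the smallest ratios in absolute size, with a median of 0.51, against 0.61 in JA and 0.56 in JB. Of the 22 members 18 had a mean above 0. Named genes with a mean above 0 were not counted apart, so the 38.4% is not a share matched for sign.

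Among the ubiquitin-like proteins, 2 of 4 were higher and 1 lower (50% and 25%, against 20.7% and 32.8% of all features), and 1 did not pass. Nedd8, the modifier that activates cullin ligases, stood at 0.62 and 1.18 in JA, 0.58 and 0.99 in JB, and 0.36 and 0.76 in Amy. It was above 0 throughout, higher in Cy5 than in Cy3 in every line, with a mean of 0.75 ± 0.17 (adjusted p = 0.00668); its 3 clones stood at 0.70, 0.75 and 0.80. The call was lost without JA (0.0534). The modifier Sumo2 stood at 1.06 and 0.82 in JA, 0.87 and 0.52 in JB, and 0.58 and 0.30 in Amy, a mean of 0.69 ± 0.25 (adjusted p = 0.0123) that held on both clones, at 0.63 and 0.76, and was lost without JA (0.0748). Ubl5, a ubiquitin-like protein of pre-mRNA splicing, stood at -0.60 and -1.10 in JA, -0.38 and -0.97 in JB, and -0.67 and -0.69 in Amy. All 6 arrays were below 0, and the mean was -0.73 ± 0.10 (adjusted p = 0.00541). Ubl4a averaged 0.079 ± 0.23 and did not pass (adjusted p = 0.657).

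Enzymes of the SUMO branch went in different directions. Uba2, the catalytic subunit of the SUMO-activating enzyme, stood at -2.002 and -2.36 in JA, -1.34 and -1.63 in JB, and -1.11 and -0.98 in Amy. All values were below 0, JA lowest and Amy nearest to 0 with no overlap, and the mean was -1.57 ± 0.57, or 2.97-fold lower (adjusted p = 0.00457). Its partner subunit Sae1, outside the name pattern, averaged 0.91 ± 0.15 (adjusted p = 0.00349) and was above 0 on all 6 arrays. The 2 ratios were not tested against each other. Uba1, the main E1 enzyme for ubiquitin, stood at -0.26 and -0.26 in JA, -0.34 and -0.48 in JB, and -0.35 and -0.13 in Amy, a mean of -0.30 ± 0.091 that did not pass (adjusted p = 0.0775) but did with line as a random block (0.0269). Its 3 clones disagreed, at -0.98, -0.13 and 0.21.

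Of the 11 E2 enzymes, 4 were higher and 2 lower (36.4% and 18.2%, against 20.7% and 32.8% of all features), around a median of 0.34. Ube2s, which elongates ubiquitin chains for the anaphase-promoting complex, stood at 1.55 and 1.84 in JA, 1.44 and 1.54 in JB, and 0.87 and 1.09 in Amy. Its lines fell in the order JA, JB and Amy, without overlap, and both clones were alike at 1.36 and 1.42. The mean was 1.39 ± 0.37, or 2.62-fold (adjusted p = 0.00274), the largest among the members. Ube2t, the E2 of Fanconi anemia DNA repair, stood at 0.55 and 0.24 in JA, 0.62 and 0.36 in JB, and 0.36 and 0.75 in Amy, a mean of 0.48 ± 0.084 (adjusted p = 0.0197) lost without JA (0.0735), Amy (0.093) or the JA Cy3 array (0.0641) and on the Cy5 arrays alone (0.0673).

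A pair of E2 enzymes passed without 1 sign on all arrays. Ube2j1, which acts in degradation at the endoplasmic reticulum, stood at 0.80 and 1.59 in JA, -0.44 and 0.89 in JB, and 2.11 and 1.15 in Amy. Amy was highest and JB straddled 0; the mean was 1.02 ± 0.72 (adjusted p = 0.031), lost without JA (0.161), Amy (0.131) or the JB Cy5 array (0.163), on the Cy3 arrays alone (0.182) and with dye orientation as a block (0.0946). Ube2d1, an E2 used by many ligases, stood at 1.27 and 0.94 in JA, 0.31 and -0.0076 in JB, and 0.96 and 1.08 in Amy, JB lying below the other lines on both arrays. Its mean was 0.76 ± 0.53 (adjusted p = 0.0354), lost without JA (0.183), Amy (0.16) or the JB Cy3 array (0.0648) and on the Cy5 arrays alone (0.0737).

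Ube2a and Ube2e2 were the E2 genes that were lower. Ube2a, the homolog of yeast Rad6, stood at -0.69 and -1.09 in JA, -0.83 and -1.30 in JB, and -0.81 and -0.74 in Amy, with a mean of -0.91 ± 0.15 (adjusted p = 0.00345). Every array lay below -0.6, JB Cy5 lowest. Ube2e2 stood at -0.83 and -0.64 in JA, -0.59 and -0.47 in JB, and -0.87 and -0.57 in Amy, a mean of -0.66 ± 0.11 (adjusted p = 0.00789), lost without JA (0.0591). The related Ube2e3 had the opposite sign, 0.34 ± 0.13, and did not pass (adjusted p = 0.0648), although it did with centred arrays (0.0254), with dye orientation as a block (0.0341) and with line as a random block (0.0192). Ube2m, which carries Nedd8, averaged -0.35 ± 0.36 and passed without JB (0.0408), with JB near 0 on both arrays; Ube2l3, at 0.41 ± 0.39, passed without Amy (0.0417) and with line as a random block (0.0439). Ube2q1 and Ube2g1 averaged 0.056 ± 0.30 and -0.15 ± 0.17.

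**Figure D3:**
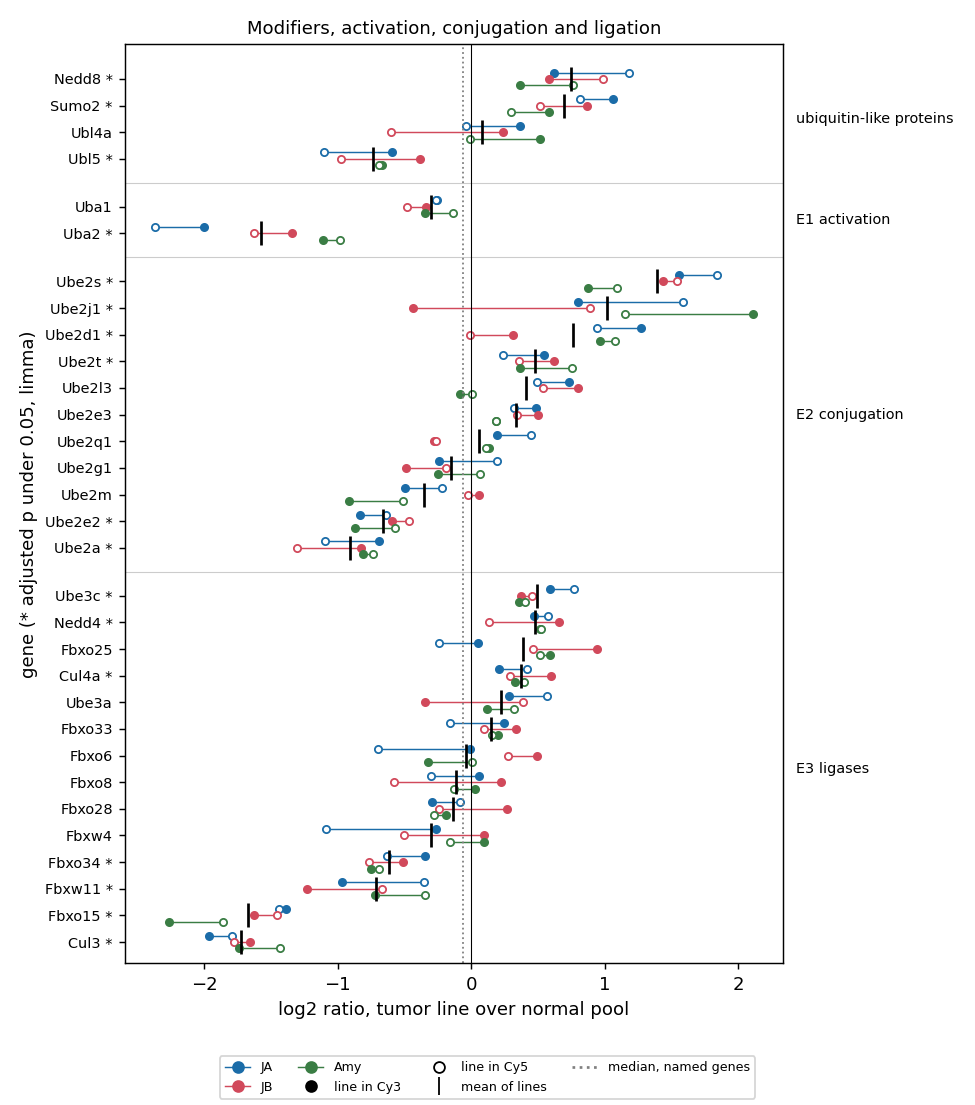
Log2 ratios of tumor line over normal pool (x axis) for the ubiquitin-like proteins, E1, E2 and E3 members (y axis), drawn as for the proteasome members, with asterisks for an adjusted p under 0.05. Cul3, Fbxo15 and Uba2 lie below -0.9 on every array and Ube2s lies above 0.8 on every array, while the 6 F-box genes that did not pass have arrays on both sides of 0.

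The 14 E3 genes were split, 3 higher, 4 lower and 7 that did not pass (21.4% and 28.6%, close to 20.7% and 32.8% of all features), and their median of -0.079 became 0.044 with centred arrays. Cul3, the scaffold of ligases that use BTB-domain adaptors such as Keap1, stood at -1.96 and -1.79 in JA, -1.66 and -1.77 in JB, and -1.74 and -1.43 in Amy. The 6 values lay close together, between -1.96 and -1.43, and the mean was -1.73 ± 0.15, or 3.31-fold lower (adjusted p = 0.000573), the lowest of all members. Cul4a, the scaffold of ligases that use Ddb1, stood at 0.21 and 0.41 in JA, 0.60 and 0.29 in JB, and 0.33 and 0.40 in Amy. It was above 0 on all 6 arrays at a mean of 0.37 ± 0.066 (adjusted p = 0.0407), a call lost without JA (0.121), JB (0.117), Amy (0.129), the JA Cy3 array (0.0588), the JA Cy5 array (0.078), the JB Cy3 array (0.094), the JB Cy5 array (0.0579) or the Amy Cy5 array (0.073), on the Cy3 arrays alone (0.0801) and on the Cy5 arrays alone (0.0655). Keap1 averaged 0.27 ± 0.13 and the cullin RING subunit Rbx1 -0.18 ± 0.10; neither passed (adjusted p = 0.114 and 0.236).

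F-box proteins bring substrates to Cul1 ligases through Skp1, and 3 of the 9 measured were lower and none higher, around a median of -0.14; the share lower, 33.3%, is close to the 32.8% of all features. Fbxo15 stood at -1.39 and -1.44 in JA, -1.63 and -1.46 in JB, and -2.26 and -1.86 in Amy. Amy was lowest on both arrays without overlap, and the mean was -1.67 ± 0.34, or 3.19-fold lower (adjusted p = 0.00147). Fbxw11, a beta-TrCP protein that recognizes phosphorylated substrates such as beta-catenin, stood at -0.97 and -0.36 in JA, -1.23 and -0.66 in JB, and -0.72 and -0.35 in Amy. Its Cy3 arrays were lower than its Cy5 arrays in every line; the mean was -0.71 ± 0.21 (adjusted p = 0.00925), lost without JA (0.0584). Fbxo34 stood at -0.34 and -0.63 in JA, -0.51 and -0.76 in JB, and -0.75 and -0.69 in Amy, a mean of -0.61 ± 0.12 (adjusted p = 0.0101), lost without Amy (0.0582). The remaining F-box genes, Fbxo6, Fbxo8, Fbxo25, Fbxo28, Fbxo33 and Fbxw4, averaged between -0.30 for Fbxw4 and 0.39 for Fbxo25. Skp1 averaged 0.37 ± 0.17 (adjusted p = 0.0576).

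Among the HECT-type ligases, Ube3c and Nedd4 were higher, whereas Ube3a and, outside the name pattern, Huwe1, Smurf1 and Smurf2 did not pass. Ube3c, which extends chains on substrates at the proteasome, stood at 0.59 and 0.77 in JA, 0.38 and 0.46 in JB, and 0.35 and 0.40 in Amy, with a mean of 0.49 ± 0.16 (adjusted p = 0.0241), lost without JA (0.123) or Amy (0.0696). Nedd4, a ligase of membrane receptors and channels, stood at 0.47 and 0.57 in JA, 0.66 and 0.14 in JB, and 0.51 and 0.53 in Amy. Only the JB Cy5 array lay below 0.4, and the mean of 0.48 ± 0.073 (adjusted p = 0.0193) lost its call without JA (0.0988), Amy (0.0872) or the JB Cy3 array (0.0822) and on the Cy5 arrays alone (0.0765). Ube3a, the ligase known from Angelman syndrome, stood at 0.28 and 0.57 in JA, -0.34 and 0.39 in JB, and 0.12 and 0.32 in Amy, a mean of 0.22 ± 0.20 that did not pass (adjusted p = 0.211). The JB Cy3 value rested in part on duplicate spots of 1 clone that differed by more than 1, at -1.71 and -0.11. The other clone averaged 0.22 on that array.

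Of the 15 enzymes of removal, 5 were higher and 2 lower (33.3% and 13.3%, against 20.7% and 32.8% of all features), and 8 did not pass. The class median of 0.22 was 0.42 on the Cy3 arrays and -0.094 on the Cy5 arrays. Usp36, a deubiquitinase of the nucleolus, stood at -1.39 and -1.42 in JA, -1.44 and -1.49 in JB, and -1.56 and -1.59 in Amy, a mean of -1.48 ± 0.087, or 2.79-fold lower (adjusted p = 0.000738). Its 6 values lay between -1.59 and -1.39, whichever the line or dye. Usp2 stood at -0.54 and -0.69 in JA, -0.43 and -0.60 in JB, and -0.92 and -0.92 in Amy, a mean of -0.68 ± 0.21 (adjusted p = 0.0104). Its 2 clones differed, at -1.32 and -0.043, and the call was lost without JA (0.0607) or Amy (0.0549) and when each clone had to pass.

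Usp8, which acts on receptors at endosomes, had the highest mean of the class, 0.88 ± 0.72 (adjusted p = 0.0474), from 0.31 and 0.29 in JA, 1.77 and 1.60 in JB, and 0.64 and 0.67 in Amy. JB stood above both other lines on both arrays, but the 2 clones of the gene pointed in opposite directions, at 2.34 and -0.58. In JB the first clone read 3.72 and 3.89 and the second -0.17 and -0.69. The call of Usp8 was lost without JA (0.0667), JB (0.0586), Amy (0.118), the JA Cy3 array (0.0552) or the JB Cy5 array (0.0562), on the Cy5 arrays alone (0.0503) and when each clone had to pass.

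Usp30, a deubiquitinase of the outer mitochondrial membrane, stood at 0.25 and 0.64 in JA, 0.77 and 0.62 in JB, and 0.67 and 0.80 in Amy, a mean of 0.62 ± 0.16 (adjusted p = 0.0112), lost without Amy (0.0632). Usp25 stood at 1.25 and 1.56 in JA, 0.55 and 0.33 in JB, and 0.20 and 0.55 in Amy, with JA above the other lines and a mean of 0.74 ± 0.57 (adjusted p = 0.0463). Its call was lost without JA (0.118), Amy (0.0755), the JA Cy3 array (0.0608), the JB Cy3 array (0.0633) or the Amy Cy5 array (0.071), on the Cy3 arrays alone (0.0542) and on the Cy5 arrays alone (0.0539). Usp15, a regulator of TGF-beta receptor signaling, stood at 1.27 and 0.83 in JA, 0.51 and 0.13 in JB, and 0.62 and 0.34 in Amy, JA again highest. Its mean was 0.61 ± 0.38 (adjusted p = 0.035), its clones stood at 0.60 and 0.63, and the call was lost without JA (0.131), Amy (0.0967), the JB Cy3 array (0.0757) or the Amy Cy3 array (0.0534) and on the Cy5 arrays alone (0.103). Usp42 passed at 0.62 ± 0.29 (adjusted p = 0.0211) with 1 JA array just below 0, and lost the call without JA (0.0583), JB (0.0521), Amy (0.0755) or the JA Cy3 array (0.12), on the Cy5 arrays alone (0.129) and with dye orientation as a block (0.0827).

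Usp28, the closest relative of Usp25, showed a different order of lines. It stood at -0.79 and -0.36 in JA, -1.13 and -1.07 in JB, and -0.0017 and 0.042 in Amy, so that JB was past -1 on both arrays and Amy was at the level of the pool. Its mean of -0.55 ± 0.56 did not pass (adjusted p = 0.0964) but did without Amy (0.0434) and with line as a random block (0.038). Uchl1, the ubiquitin hydrolase abundant in neurons, stood at 0.14 and 0.74 in JA, -0.099 and 0.53 in JB, and 0.17 and 0.38 in Amy, a mean of 0.31 ± 0.12 (adjusted p = 0.0772) that passed with centred arrays (0.0319) and on the Cy5 arrays alone (0.0276). Usp9x, a large deubiquitinase, missed the threshold at -0.41 ± 0.21 (adjusted p = 0.0503), was below 0 on all 6 arrays and passed on the Cy5 arrays alone (0.0497), with dye orientation as a block (0.0346), with line as a random block (0.0144) and with features of dye-swap disagreement left out (0.0456). Usp7, which stabilizes Mdm2, averaged -0.23 ± 0.072 and was also below 0 on all 6 arrays. Usp10, Usp19, Usp32 and Usp49 averaged between -0.06 for Usp49 and 0.47 for Usp32, and Usp32 passed without the JA Cy5 array (0.0442) and on the Cy3 arrays alone (0.0336).

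**Figure D4:**
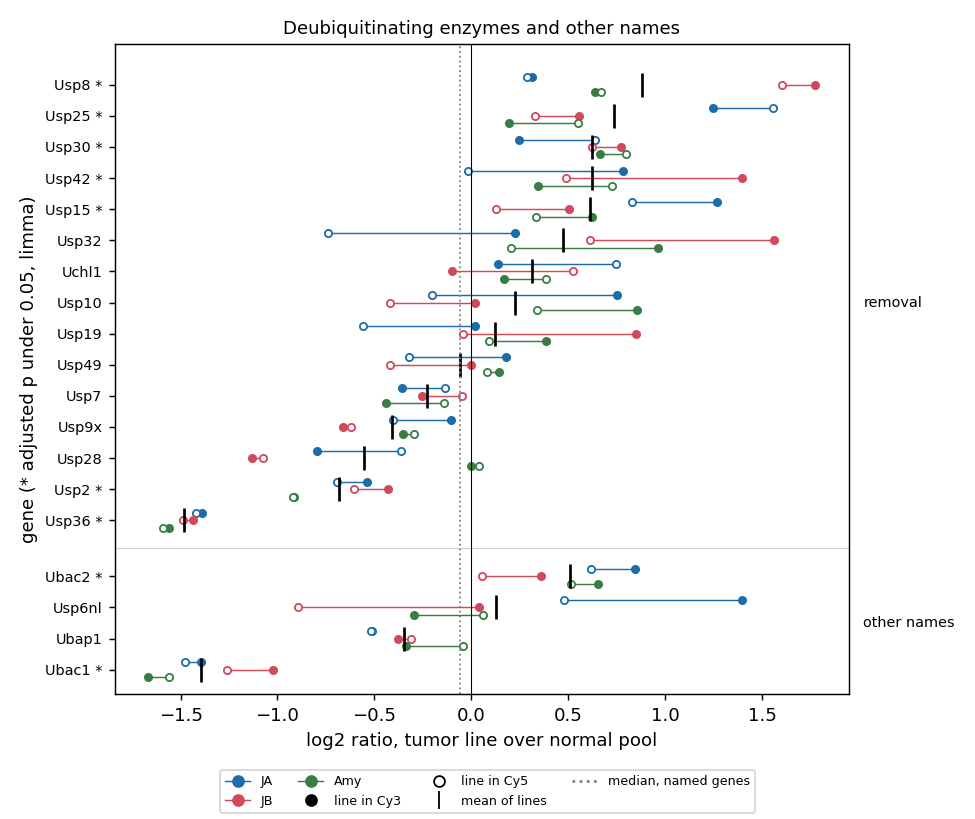
Log2 ratios of tumor line over normal pool (x axis) for the 15 enzymes of removal and the 4 other genes of the name pattern (y axis), drawn as for the proteasome members. Usp36 and Ubac1 are below -1 on every array, Usp8 is set high by JB (red), Usp25 and Usp15 by JA (blue), and several Usp genes are higher with the line in Cy3 (filled) than in Cy5 (open).

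The 4 genes that their symbols put in no class were also mixed. Ubac1, a subunit of a ligase that acts on cell cycle inhibitors, stood at -1.40 and -1.48 in JA, -1.02 and -1.26 in JB, and -1.67 and -1.56 in Amy, a mean of -1.40 ± 0.24, or 2.63-fold lower (adjusted p = 0.00153). It is not among the 14 E3 genes counted above, which were taken by symbol. Ubac2, a protein of the endoplasmic reticulum membrane, stood at 0.84 and 0.62 in JA, 0.36 and 0.057 in JB, and 0.65 and 0.51 in Amy. It was above 0 throughout at 0.51 ± 0.27 (adjusted p = 0.0357), with clones at 0.26, 0.46 and 0.80, and lost the call without JA (0.172), Amy (0.143), the JA Cy3 array (0.0586) or the JB Cy3 array (0.0848), on the Cy5 arrays alone (0.102) and when each clone had to pass. Ubap1, of endosomal sorting, averaged -0.35 ± 0.16 and passed with dye orientation as a block (0.0417) and with line as a random block (0.0217), and Usp6nl averaged 0.13 ± 0.72.

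The dyes changed both single genes and the counts. On the Cy3 arrays 20 members were higher and 12 lower (27.8% and 16.7%, against 20.7% and 29.7% of all features). On the Cy5 arrays 16 were higher and 12 lower (22.2% and 16.7%, against 19.2% and 32.1%), a share of higher calls close to that of all features. Mean ratios of the 2 orientations differed by at least 1 in 2 members (2.78%, against 6.16% of all features), Psmc2 and Psmb8, and by -0.89 (Cy5 minus Cy3) in Usp32, which averaged 0.025 in Cy5 and 0.92 in Cy3. Proteasome members had a median of 0.22 on the Cy3 arrays and 0.45 on the Cy5 arrays, the opposite order to the enzymes of removal. The correlation between the arrays of a dye swap over the 72 members was 0.814 for JA, 0.786 for JB and 0.867 for Amy, values that share clones and the pool.

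**Figure D5:**
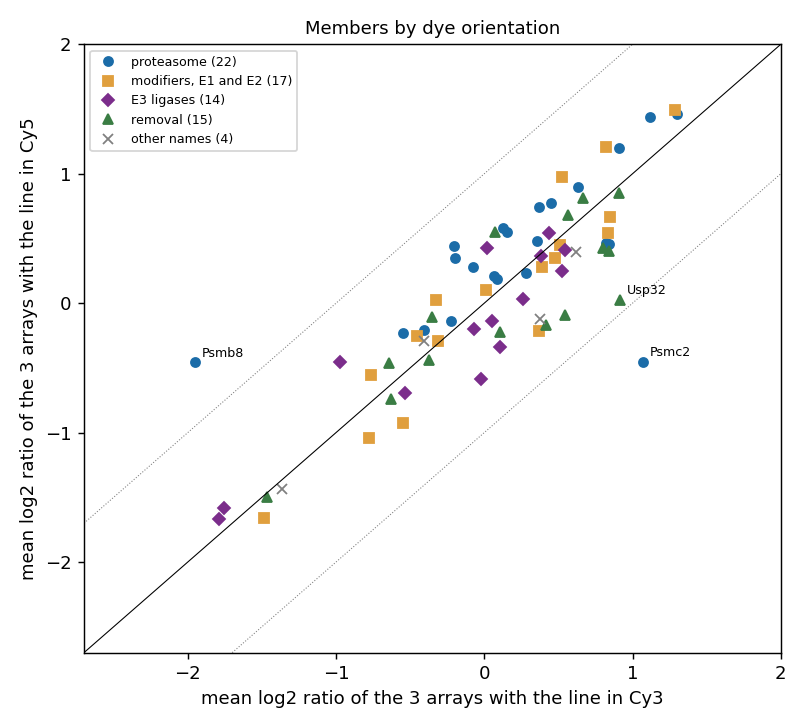
Mean log2 ratio of the 3 arrays with the line in Cy3 (x axis) against that of the 3 arrays with the line in Cy5 (y axis), 1 point per member, with symbols by class, the solid line of equality and dotted lines at a difference of 1. Psmc2 and Psmb8 lie beyond the dotted lines, 18 of the 22 proteasome members and 5 of the 15 enzymes of removal lie above the line of equality.

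A ratio of at least 1 on the log2 scale, a 2-fold difference, with 1 sign on both arrays was reached in at least 1 line by 14 members. JA had 5 higher, Psmd2, Psme3, Psmg1, Ube2s and Usp25 (6.94%, against 7.42% of all features), and 5 lower, Cul3, Fbxo15, Uba2, Ubac1 and Usp36 (6.94%, against 13.6%). JB had 4 higher, Psmd2, Psme3, Ube2s and Usp8 (5.56%, against 5.93%), and 6 lower, the same 5 and Usp28 (8.33%, against 11.4%). Amy had 1 higher, Ube2j1 (1.39%, against 4.97%), and 5 lower, Cul3, Fbxo15, Psmb8, Ubac1 and Usp36 (6.94%, against 12%). Cul3, Fbxo15, Ubac1 and Usp36 were thus past 2-fold in all 3 lines, and no member was so above the pool. A line has no replicate, so these counts carry no test. Among the 23 members called higher, JA had the highest line mean in 14, JB in 6 and Amy in 3, while Amy had the lowest in 12. Over the 3158 named genes JA was highest in 1062, JB in 1199 and Amy in 897, and Amy was lowest in 1213 (38.4%). The 23 were chosen by calls that use these same line values, so their order is a description only.

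Different clones of a gene were a further source of spread. Of the 72 members 22 were measured by several clones, whose means differed by more than 1 in 4, Usp8, Usp2, Uba1 and Ube2q1, and had opposite signs in 7. The 4 clones of Ube2q1 ran from -0.64 to 0.44. By contrast, the clones of Nedd8, Ube2s, Psma5, Psma6 and Usp15 lay within 0.1 of each other. The 50 other members were measured by 1 clone, among them Cul3, Fbxo15, Uba2, Usp36, Psmd2 and Psme3, so no clones could be compared. The SD is taken over the line means after the clones are averaged, so it leaves out clone spread for every member.

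Genes of the pathway outside the name pattern were taken from a list of 131 symbols, of which 39 were measured: 11 were higher and 8 lower (28.2% and 20.5%, against 20.7% and 32.8% of all features), around a median of 0.27. The highest was Cdc20, which directs the anaphase-promoting complex that Ube2s serves, at 2.71 ± 0.24 (adjusted p = 0.000219), from 3.06 and 2.90 in JA, 2.81 and 2.41 in JB, and 2.40 and 2.67 in Amy. Cand1, which exchanges the substrate receptors of cullins, was higher at 1.25 ± 0.23 (adjusted p = 0.00194). Its relative Cand2 was lower at -0.76 ± 0.21 (adjusted p = 0.00765), a call lost without JA (0.0518) and on the Cy3 arrays alone (0.0713). Sel1l, of degradation at the endoplasmic reticulum, stood at 0.89 ± 0.12, above 0 on all 6 arrays (adjusted p = 0.00343).

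On the lower side were the ligase Rnf13 at -1.62 ± 0.071 (adjusted p = 0.000562), the chaperone Bag6 at -1.04 ± 0.34, the ubiquitin-binding adaptor Tollip at -0.83 ± 0.19 and the ligase Traf6 at -0.70 ± 0.069, each below 0 on all 6 arrays. Rnf13 stood at -1.54 and -1.55 in JA, -1.47 and -1.91 in JB, and -1.52 and -1.71 in Amy, with the lines overlapping. Cops3, a subunit of the COP9 signalosome that removes Nedd8 from cullins, stood at 1.22 and 1.01 in JA, 0.63 and 0.041 in JB, and 0.50 and 0.31 in Amy, JA being highest. Its mean was 0.62 ± 0.43 (adjusted p = 0.0426), lost without JA (0.14), Amy (0.0928), the JA Cy3 array (0.0524), the JA Cy5 array (0.0508), the JB Cy3 array (0.114) or the Amy Cy3 array (0.0571), on the Cy5 arrays alone (0.142) and when each clone had to pass. With centred arrays 17 genes of this list were higher and 5 lower, against 25.7% and 27.6% of all features.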

How the data were processed

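The deposited values are log ratios, 1 per spot and array for 6 arrays of 16128 spots, used as log2; their direction is taken from the titles, and per the labels each line was labelled with Cy3 on 1 array and Cy5 on the other. Scanner, background correction and the authors' normalization are not given in the sources used here; without spot intensities, the largest ratios cannot be told from bounds. Array medians ran from -0.15 to -0.051.

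Spots were averaged per symbol of the platform annotation (8084 spots with 1 symbol, 40 with several, 8004 with none). All 72 members matched RefSeq by gene identifier. The arrays of a line were averaged, and the mean of 3 lines was tested against 0 with limma 3.58.1 (R 4.3.3), two-sided, Benjamini-Hochberg over 7180 features. The fit was also run on simulated line means, drawn independently with the variances of the model. That run held no pool variation and no dye effect, so it cannot speak to those errors. The replicate number is the dye orientation, and Cy5 minus Cy3 differences correlated between lines at 0.526 to 0.613, so the numbers pair the arrays.

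Members and lists were chosen with earlier results of these data known. Every member could be named; full values went to up to 4 members per class and direction that passed with 1 sign on all arrays, to Psmb8 as the member that sets a line apart, to a fixed set and to up to 5 other pathway genes per direction. Some further values were added after they were seen. Alternatives changed the normalization, error model, threshold, filter, dye orientation, block and the lines or arrays included. Python 3.11.15 with matplotlib 3.10.9 made the figures.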

Additional observations from a re-analysis of the deposited data

Results flagged for a closer look

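In 6 members both arrays of 1 line lay on one side of 0 and both arrays of another line on the other; none of these differences was tested, since a line has no replicate. For Psmb8 the line means differed by -1.997 between JA and JB (JA minus JB) and by 3.53 between JB and Amy (JB minus Amy); the second rests in part on the Amy Cy3 array, whose spots disagreed. Psma6 differed by 0.48 for JA minus Amy and 0.97 for JB minus Amy, and Psma7 by 0.51 for JA minus Amy. Ube2q1 differed by 0.59 for JA minus JB and -0.39 for JB minus Amy, among 4 clones that themselves ran from -0.64 to 0.44. Fbxo6 differed by -0.74 for JA minus JB and Usp49 by -0.32 for JB minus Amy, with the JB Cy3 value of Usp49 close to 0.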

How the results depend on the processing

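The counts of 23 higher and 12 lower members stayed within 1.5 times under centring, scaling, quantile normalization, either dye orientation, robust moderation, clone medians, single clones and a filter on dye-swap disagreement. Leaving out a line or an array gave 7 to 23 higher and 8 to 13 lower. The share of members called higher did not exceed that of all features without JA or without Amy, with unmoderated variances (1 higher, 3 lower), with a spread for the pool (6 and 7) or at a threshold of 0.01 (7 higher, 9.72%, against 11.1%). With dye orientation as a replicate block, 24 were higher and 13 lower (33.3% and 18.1%, against 21.7% and 32.8% of all features). The calls that the block changed are given beside their genes. Among the other pathway genes it ended those of Ufm1 (adjusted p = 0.0991) and Cdc34 (0.0988). No other call of these genes changed with the block. Cdc34 averaged 0.023 on the Cy3 arrays, against a mean of -0.36 ± 0.097. Of the 39 other pathway genes, 17 were higher and 5 lower with centred arrays, against 25.7% and 27.6% of all features. Leaving out a line gave 4 to 11 higher and 4 to 6 lower. In those fits 9.87% to 19.5% of all features were higher and 19% to 32% lower.

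At a size of 0.6 in place of 1, JA had 14 members higher and 8 lower on both arrays, JB 9 and 9, and Amy 8 and 10. At 1.5 they were 2 and 2 in JA, 1 and 1 in JB, and 0 and 3 in Amy. At a size of 1 with centred arrays Amy had 3 higher. At 0.6, 6 members set a line apart. The share of all features was not computed at these other settings, so these counts are not a result about the members. Class medians that moved by more than the spread between lines were those of the regulatory particle (0.40 centred, 0.39 in Cy5), the ubiquitin-like proteins (0.17 in Cy5), the E3 ligases (0.044 centred, 0.037 in Cy3, -0.17 in Cy5) and the enzymes of removal (0.42 in Cy3, -0.094 in Cy5). The cause was not tested. The count of genes with Amy lowest was an alternative chosen after seeing the data. The signal over background of the arrays, which limits all ratios, was not used here.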
